A study of Mus musculus with 30 samples.

Results

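The protease-activated receptors are a family of 4 G protein-coupled receptors, and all 4 genes were read in the aorta and the kidney of mice with and without the epidermal growth factor receptor (EGFR) in vascular smooth muscle. The members were chosen by family name from the 41128 genes of each count table: F2r (encoding PAR1), F2rl1 (PAR2), F2rl2 (PAR3) and F2rl3 (PAR4). The family was selected because the measured F2r values of knockout and wild-type aortae differed, so that comparison is given here as a description without a test. Total RNA freed of ribosomal RNA was sequenced from 14 aortae and 16 kidneys, and the values are raw counts per gene. An aorta library held 6403699 to 13052870 counts in total and a kidney library 16354880 to 28331314.

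All mice were male on a C57BL/6 background (C57Bl6J in the labels). Knockout animals (KO) carried both floxed alleles of Egfr (flox/flox) and a tamoxifen-inducible Cre recombinase driven by the smooth muscle myosin heavy chain promoter (SMMHC-Cre). Wild-type animals (WT) carried the same Cre without the floxed alleles, and both genotypes received tamoxifen by injection before the diet began. High-fat diet (HFD) started at 6 weeks of age and lasted 18 weeks, and the other animals stayed on standard-fat diet (SFD). There were 3 WT and 3 KO aortae on SFD, 4 WT and 4 KO aortae on HFD, and 4 kidneys in each of the 4 groups. Animals are called by group and replicate number (WT-SFD 1), values in a group are listed in that order, and 3 mice gave both tissues. The numbers are counted within each tissue, so the same number in aorta and kidney need not be the same mouse. The Cre was designed to act in smooth muscle, and whether cells of other types in these tissues kept Egfr was not measured.

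These receptors carry their own ligand. A protease cuts the extracellular amino terminus, and the new end folds back as a tethered ligand that switches the receptor on. Thrombin is the main activator of PAR1, PAR3 and PAR4, whereas trypsin, mast cell tryptase and coagulation factor Xa activate PAR2. In the vessel wall PAR1 raises calcium and contraction in smooth muscle through Gq and G12/13 and can transactivate EGFR, PAR2 is known for endothelium-dependent relaxation, and mouse platelets use PAR3 and PAR4 in place of PAR1.

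The coding sequence across the activation site is what distinguishes the family from other G protein-coupled receptors, and it is shown for each member on its coding strand, 5′ to 3′, from the GENCODE vM21 transcripts on GRCm38/mm10. Lower case marks the 4 codons ahead of the cut and capitals mark the first 6 codons of the tethered ligand.
F2r: gtgaacccccgcTCATTCTTTCTAAGGAAT
F2rl1: agtaaaggaagaAGTCTTATTGGCAGATTA
F2rl2: ttaactattaagAGTTTTAATGGGGGTCCC
F2rl3: cctaatccacgaGGCTACCCGGGCAAATTC
The F2r site lies at chr13:95604885-95604914 on the minus strand, and the ligand starts at residue 42 of 430. That of F2rl1 is at chr13:95514241-95514270 on the minus strand, with the ligand from residue 39 of 399. The F2rl2 site is at chr13:95700548-95700577 on the plus strand, from residue 38 of 369, and that of F2rl3 is at chr8:72762312-72762341 on the plus strand, from residue 60 of 396. The codon just ahead of the cut is an arginine codon in F2r, F2rl1 and F2rl3 and a lysine codon in F2rl2. Over their whole length the 6 pairs of translated receptors shared between 32.6% and 36.4% of their aligned residues, and F2rl1 with F2rl2 was the closest pair.

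F2rl1, F2r and F2rl2 are neighbours. F2rl1 (ENSMUSG00000021678, chr13:95511732-95525227), F2r (ENSMUSG00000048376, chr13:95601803-95618487) and F2rl2 (ENSMUSG00000021675, chr13:95696853-95702739) lie within 191008 bp, with 76575 bp and 78365 bp between them. F2rl2 sits on the opposite strand inside Iqgap2, which encodes a scaffold protein that binds actin, and shares no exon base with it. F2rl3 (ENSMUSG00000050147, chr8:72761880-72763874) stands apart. The coding transcript of each gene has 2 exons. F2rl3 has 2 transcripts, and their exons together cover its whole span of 1995 bp, which is the exon length used for it.

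Egfr itself checks the genotype labels. Levels are given in FPM, counts scaled with edgeR's TMM library factors to a library of 1000000. Egfr was 46.6, 39.4 and 54.2 FPM in WT-SFD and 26.7, 35.5 and 28 FPM in KO-SFD. In WT-HFD it was 64.9, 56.9, 51.1 and 56.9 FPM, and the KO-HFD aortae read 27.5, 40.5, 39.6 and 33.3 FPM. Each KO aorta thus read less Egfr than any WT aorta of its diet. The fitted difference averaged over diet was a log2 fold change of -0.67 (SE 0.109, edgeR quasi-likelihood test, Benjamini-Hochberg adjusted p = 0.0132), against 0.00 (SE 0.0935, edgeR adjusted p = 0.998) in the kidney, where smooth muscle is a small part of the tissue.

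Some aortae held transcripts of fat. The mean of 10 adipocyte markers, in log2 of library-scaled counts, was 7.76 in WT-SFD 1, 7.41 in WT-SFD 2, 7.01 in KO-SFD 1 and 5.47 in KO-SFD 2, and 1.52 to 3.97 in the other 10 aortae. All 4 of these fat-rich aortae were on SFD, so diet and fat content move together in this tissue. Smooth muscle markers, led by Acta2, summed to 10700, 13300 and 11600 FPM in WT-SFD 1, WT-SFD 2 and KO-SFD 1 and to between 16000 and 19200 FPM in the other 11. The smooth muscle markers Tagln and Cnn1 and the endothelial markers Cdh5 and Esam had no counts in either tissue, while 7 of 9 markers of each list were read. No gene on chromosomes 9, X, Y and MT or at the end of chromosome 8 had counts. A marker without counts is therefore not read as absent from the tissue. In whole tissue, fewer cells of a type and less RNA per cell cannot be told apart.

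F2r was the prominent member of the family in the aorta. It was 28.1, 27.5 and 43.9 FPM in WT-SFD and 48.5, 47.6, 51.6 and 43.3 FPM in WT-HFD. In KO-SFD it was 54.8, 88.3 and 90.2 FPM, and in KO-HFD it was 79.9, 94.2, 100 and 113 FPM. Every KO aorta was above every WT aorta of the same diet, and the lowest KO value, 54.8 FPM in the fat-rich aorta KO-SFD 1, was above the highest WT value. Of all 14796 genes tested, 8.57% had groups without overlap on SFD and 4.18% on HFD, in either direction, and nothing is read from that count for F2r, which was selected on this contrast. Of the 15 marker lists, macrophage sums did not overlap on SFD (158 to 176 FPM in KO against 115 to 135 FPM in WT, led by Mrc1), and on HFD neither did mesangial cell and pericyte sums (5620 to 6530 FPM against 4520 to 4900 FPM, led by Itga8, with a list median log2 fold change of 0.07 over 4 tested genes) nor distal convoluted tubule sums, which stayed under 5 FPM with 1 gene tested. Rgs5, a member of the pericyte list, averaged 2940 FPM in KO-HFD against 1710 FPM in WT-HFD. No gene of these 3 lists passed for KO against WT, and their part in the F2r values was not tested.

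**Figure D1:**
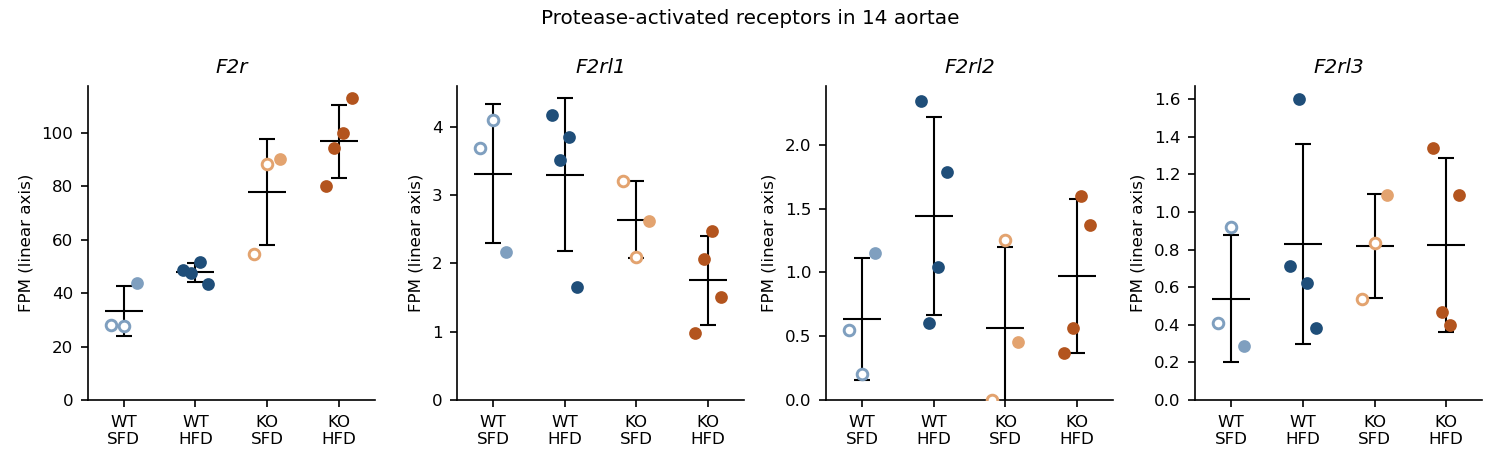
Level of each receptor in every aorta, in FPM on linear axes, by genotype and diet. Horizontal lines are group means, bars are SDs cut off at 0, and open circles are the 4 aortae rich in adipocyte transcripts; F2r in KO lies above WT on each diet, whereas the groups overlap for the other receptors.

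Group means were 33.2 ± 9.33 FPM in WT-SFD (SD, n = 3), 47.7 ± 3.44 in WT-HFD (n = 4), 77.8 ± 19.9 in KO-SFD (n = 3) and 96.8 ± 13.6 in KO-HFD (n = 4). The fitted KO to WT ratio of F2r was 2.35-fold on SFD (log2 1.23, SE 0.204), 2.03-fold on HFD (log2 1.02, SE 0.174) and 2.18-fold averaged over diet (log2 1.13, SE 0.134). The diet effect was 0.21 lower on the log2 scale in KO than in WT, with an SE of 0.265. Without each library in turn, the log2 difference on SFD ran from 1.11 (without WT-SFD 2) to 1.49 (without WT-SFD 3), and on HFD from 0.94 to 1.10. With the 4 fat-rich aortae left out it was 1.04 on SFD, 1.02 on HFD and 1.03 on average, a choice made after seeing the data.

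The diets were a separate question for F2r, since the choice of the family did not use them. F2r was higher on HFD than on SFD by 0.53 on the log2 scale in WT (SE 0.191, 95% confidence interval 0.12 to 0.94, edgeR adjusted p = 0.166) and by 0.31 in KO (SE 0.187, interval -0.08 to 0.71, edgeR adjusted p = 0.699). Averaged over genotype the difference was 0.42 (SE 0.134, interval 0.14 to 0.71, edgeR adjusted p = 0.097). It passed the limit of 0.05 with DESeq2 (log2 0.43, adjusted p = 0.0443) and in edgeR without WT-SFD 3 (log2 0.55, adjusted p = 0.00684), the WT-SFD aorta with little fat and the highest F2r of its group. Without that aorta the difference in WT was 0.78 and passed as well (edgeR adjusted p = 0.0111). The groups overlapped in both genotypes: 43.9 FPM in that SFD mouse exceeded 43.3 FPM in WT-HFD 4. Fat moved with this difference. Leaving out the 4 fat-rich aortae left 1 SFD aorta per genotype, WT-SFD 3 and KO-SFD 3, assumed to vary like the other groups. With those 4 left out it was 0.12 in WT, 0.10 in KO and 0.11 on average (SE 0.12). With the adipocyte mean as a covariate it was 0.25 in WT, 0.04 in KO and 0.14 on average, and without KO-SFD 1 alone it was 0.12 in KO.

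F2rl1, the trypsin and tryptase receptor, was far lower. Its values were 3.68, 4.09 and 2.16 FPM in WT-SFD and 4.17, 3.51, 3.85 and 1.66 FPM in WT-HFD. They were 3.21, 2.09 and 2.62 FPM in KO-SFD and 0.976, 2.06, 2.47 and 1.5 FPM in KO-HFD. In WT, WT-SFD 3 and WT-HFD 4 were low and the other 5 lay between 3.51 and 4.17 FPM, and the KO values ran lower but overlapped with those 2. These levels rest on 8 to 41 counts per library. F2rl1 in KO against WT had a log2 fold change of -0.34 on SFD (interval -1.16 to 0.47, edgeR adjusted p = 0.876), -0.88 on HFD (SE 0.336, interval -1.59 to -0.16, edgeR adjusted p = 0.825) and -0.61 averaged over diet (SE 0.255, interval -1.15 to -0.07, edgeR adjusted p = 0.677). The unadjusted intervals on HFD and on average lay below 0, and neither difference passed the adjustment over all genes. With the fat-rich aortae left out the value was 0.28 on SFD, -0.87 on HFD and -0.30 on average (edgeR adjusted p = 0.989).

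Within a library, the balance of F2r to F2rl1 needs no scaling between libraries. The ratio of their counts had a median of 7.63 in WT-SFD (range 6.72 to 20.3), 13.5 in WT-HFD (11.6 to 26.1), 34.4 in KO-SFD (17.1 to 42.3) and 60.3 in KO-HFD (40.5 to 81.9). On HFD the lowest KO ratio was above the highest WT ratio, whereas on SFD KO-SFD 1 (17.1) lay below WT-SFD 3 (20.3). F2r made up a median of 85.8%, 89.8%, 95.5% and 96.7% of the family's counts in WT-SFD, WT-HFD, KO-SFD and KO-HFD. As F2r enters both measures, they are given as descriptions only.

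F2rl2, the thrombin receptor that presents thrombin to PAR4 on mouse platelets, was near the lower limit of reading, with 0 to 23 counts per aorta and 120 in all. It was 0.545, 0.205 and 1.15 FPM in WT-SFD, 2.34, 0.602, 1.04 and 1.79 FPM in WT-HFD, 0, 1.25 and 0.452 FPM in KO-SFD and 0.366, 0.56, 1.6 and 1.37 FPM in KO-HFD. The groups overlapped on each diet and in each genotype. The fitted log2 fold change of HFD against SFD was 1.25 in WT, 0.84 in KO and 1.05 averaged over genotype (interval -0.11 to 2.2, edgeR adjusted p = 0.318). Single libraries moved these values: in WT it was 0.76 without WT-SFD 2 and 1.98 without WT-SFD 3, in KO 0.34 without KO-SFD 1 and 1.86 without KO-SFD 2, and without the 4 fat-rich aortae 0.31 in WT and 1.12 in KO. The fitted log2 fold change of KO against WT averaged over diet was -0.31 (interval -1.51 to 0.89, edgeR adjusted p = 0.926). Blood moved with these levels. The 10 platelet and megakaryocyte markers, led by Ppbp, summed to 16.2, 15.8 and 12.3 FPM in WT-SFD 1, WT-SFD 2 and KO-SFD 1 and to between 34 and 74.3 FPM elsewhere, and the haemoglobin genes to 27.2, 13.1 and 20.6 FPM against 165 to 802 FPM. F2rl2 was 0.545, 0.205 and 0 FPM in those 3 aortae, and the part of platelet content in its diet values was not tested. Whether the counting used strand is not given, and without it reads from the overlapping Iqgap2 intron and from F2rl2 exons cannot be told apart. Over the 14 aortae the Pearson correlation of F2rl2 with Iqgap2 was -0.220, as a description.

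F2rl3, which responds to thrombin at high concentration, had 2 to 16 counts per aorta, 97 in all. It was 0.409, 0.921 and 0.288 FPM in WT-SFD, 0.71, 1.6, 0.62 and 0.383 FPM in WT-HFD, 0.535, 0.834 and 1.09 FPM in KO-SFD and 1.34, 0.47, 0.399 and 1.09 FPM in KO-HFD. The groups overlapped throughout. HFD against SFD averaged over genotype gave a log2 fold change of 0.21 (interval -0.69 to 1.12, edgeR adjusted p = 0.841), and KO against WT averaged over diet gave 0.20 (interval -0.71 to 1.11, edgeR adjusted p = 0.940). Both intervals contain 1, a 2-fold rise, and neither contains a 2-fold fall.

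Counted over the aorta, 0 of the 4 members passed an edgeR adjusted p under 0.05 for HFD against SFD in WT (0% of all genes tested), in KO (0%) or averaged over genotype (3.95%). At an unadjusted p under 0.05 F2r passed in WT and on average, and DESeq2 called F2r on average, where it called 1007 genes in all. Across all genes 17% had an unadjusted p under 0.05 in WT (2520 genes), 7.85% in KO (1162) and 18.8% on average (2781). For KO against WT, 0 of the 3 members other than F2r passed on SFD (0.0811% of all genes), on HFD (0.0811%) or averaged over diet (0.196%), and for the change of the diet effect with genotype 0 of these 3 passed (0%, with 646 genes at an unadjusted p under 0.05). DESeq2 called none of these either and gave no adjusted p for F2rl2 and F2rl3 averaged over diet. At an unadjusted p under 0.05, F2rl1 passed on HFD, as 5.35% of all genes did, and averaged over diet, as 7.17% did.

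**Figure D2:**
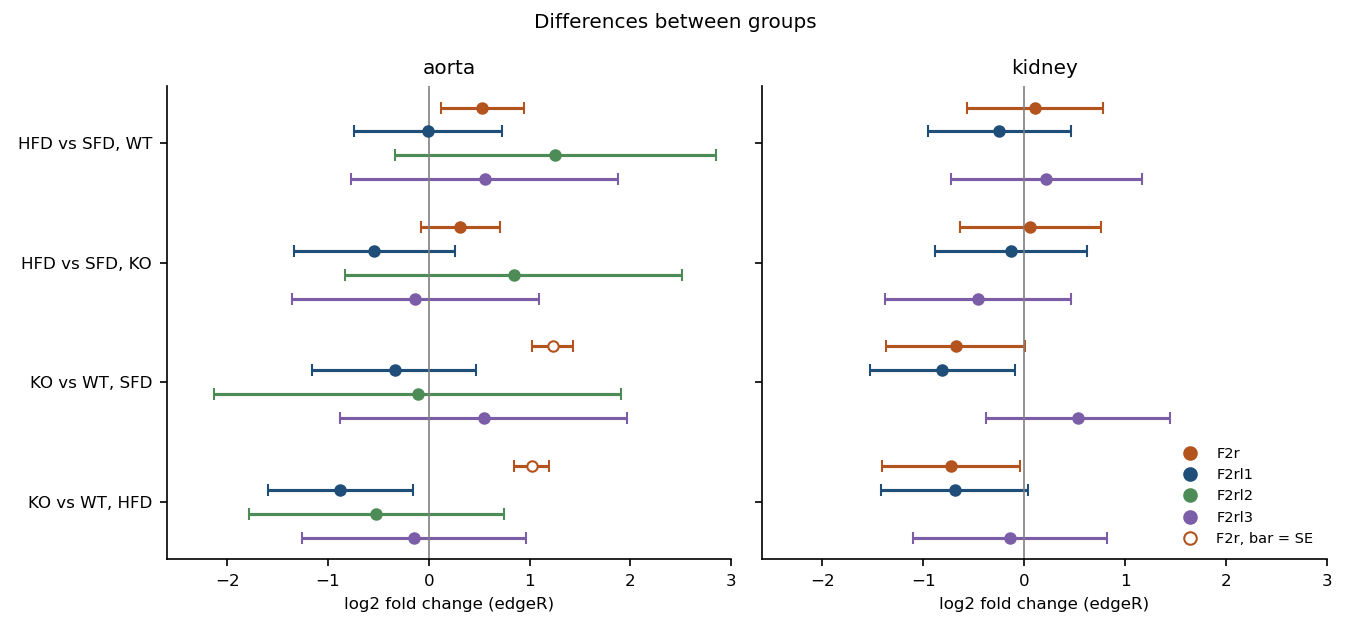
Log2 fold changes of the receptors from edgeR, for diet within each genotype and for KO against WT on each diet, with 95% confidence intervals. The open points are F2r in KO against WT aortae, on which the family was chosen, with SE bars; F2r stands at 1.23 and 1.02 in the aorta and at -0.68 and -0.73 in the kidney, and F2rl2 had too few kidney counts to be fitted.

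Levels of different genes were compared per kilobase of exon. In the aorta the median over 14 libraries was 15.9 FPM per kb for F2r (range 8.25 to 33.8), 0.93 for F2rl1 (0.356 to 1.52), 0.335 for F2rl3 (0.144 to 0.804) and 0.328 for F2rl2 (0 to 0.936). F2r lay above F2rl1 in every aorta, while F2rl2 and F2rl3 did not differ beyond their spread. Per kilobase of coding sequence the medians were 41.2 for F2r, 2.13 for F2rl1, 0.742 for F2rl2 and 0.563 for F2rl3, which turned the order of the last 2. In the kidney the order was F2r (6.35, range 4.26 to 15.6), F2rl1 (4.78, 3.48 to 12.7), F2rl3 (0.297, 0.0674 to 0.513) and F2rl2 (0, up to 0.0716), and the ranges of F2r and F2rl1 overlapped widely. Per kilobase of coding sequence these medians were 16.4, 11, 0.499 and 0. The tissues were sequenced at different sites, so their levels are set side by side without a test.

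In the kidney F2r and F2rl1 were read at comparable levels. F2r was 40.2, 40.6, 14.7 and 23.1 FPM in WT-SFD and 52.1, 25.3, 30.6 and 18.1 FPM in WT-HFD. It was 25.2, 14.2, 15.9 and 17.8 FPM in KO-SFD and 22.3, 18.4, 15.4 and 20 FPM in KO-HFD. WT-SFD 1, WT-SFD 2 and WT-HFD 1 stood high, and the remaining 5 WT kidneys lay between 14.7 and 30.6 FPM, across most of the KO range of 14.2 to 25.2 FPM. HFD against SFD gave a log2 fold change of 0.08 averaged over genotype (interval -0.40 to 0.57, edgeR adjusted p = 0.890).

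KO kidneys had lower F2r than WT kidneys by the fitted means, but not past the adjustment. The log2 fold change was -0.68 on SFD (SE 0.325, interval -1.37 to 0.01, edgeR adjusted p = 0.579), -0.73 on HFD (SE 0.324, interval -1.41 to -0.04, edgeR adjusted p = 1) and -0.70 averaged over diet (SE 0.229, interval -1.19 to -0.22, edgeR adjusted p = 0.822). The groups overlapped on each diet. Of the 15 cell type marker lists, 4 did not overlap between the genotypes on SFD and 0 on HFD. Of all single genes tested, 3.98% had groups without overlap on SFD and 1.32% on HFD. On SFD the podocyte sums, led by Podxl, were 177 to 222 FPM in KO against 234 to 321 FPM in WT, and the distal convoluted tubule sums, led by Slc12a3, were 618 to 749 FPM against 827 to 1100 FPM. The platelet sums were 23.9 to 34.6 FPM in KO against 20.9 to 22.1 FPM, and the thick ascending limb sums were 6910 to 7460 FPM against 5010 to 6830 FPM. No gene of these 4 lists passed for KO against WT, and the part of cell content in the F2r values was not tested. The sign of the F2r difference was opposite to that in the aorta, where F2r was higher in KO, and the difference between the tissues was not tested because they were fitted apart. Leaving out WT-HFD 1 moved the averaged value to -0.51 (edgeR adjusted p = 0.706) and the value on HFD to -0.36.

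F2rl1 followed the same kidneys. It was 34.8, 29.2, 13.1 and 12.5 FPM in WT-SFD, 31.5, 16.2, 17.2 and 9.55 FPM in WT-HFD, 13.2, 9.75, 14.4 and 13.1 FPM in KO-SFD and 12.6, 13.1, 10.6 and 9.8 FPM in KO-HFD. WT-SFD 1, WT-SFD 2 and WT-HFD 1 were again the highest, and the other 13 kidneys lay between 9.55 and 17.2 FPM. F2rl1 in KO against WT had a log2 fold change of -0.81 on SFD (SE 0.342, edgeR adjusted p = 0.549), -0.69 on HFD (SE 0.346, edgeR adjusted p = 1) and -0.75 averaged over diet (SE 0.243, interval -1.27 to -0.23, edgeR adjusted p = 0.822). The value on SFD was -0.51 without WT-SFD 1, and that on HFD was -0.29 without WT-HFD 1. For diet averaged over genotype it was -0.19 (interval -0.70 to 0.33, edgeR adjusted p = 0.731).

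**Figure D3:**
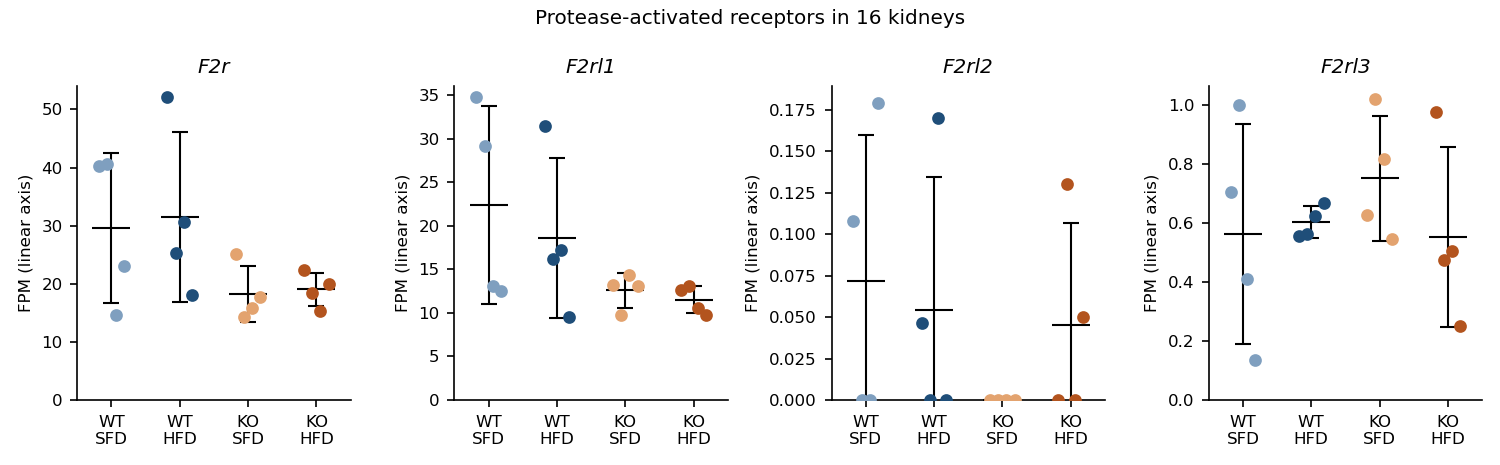
Level of each receptor in every kidney, in FPM on linear axes, by genotype and diet; horizontal lines are group means and bars are SDs cut off at 0. The same 3 WT kidneys are highest for F2r (40.2 to 52.1 FPM) and for F2rl1 (29.2 to 34.8 FPM), and F2rl2 is at 0 in 10 of 16 kidneys.

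The F2r to F2rl1 count ratio in the kidney stayed between 1.10 and 2.05 in all 16 libraries, with a median of 1.51, although F2r itself spanned 14.2 to 52.1 FPM. Across the 16 kidneys the Pearson correlation of their log2 values was 0.881 (Spearman 0.706), and 0.870 after group means were removed, and each was the gene most like the other of all genes tested. Without the 3 high kidneys, a choice made after seeing the data, it was 0.573 (Spearman 0.467, n = 13), and without the 2 farthest from the median F2r 0.780 (Spearman 0.574, n = 14). All points share the library depth and the genotype and diet groups. Their total counts were 17833253, 16354880 and 19585667, and that of WT-SFD 2 was the lowest of all kidneys, while the other 13 ran from 17487556 to 28331314. Across the 14 aortae the same correlation was -0.587 (Spearman -0.508), and -0.158 after group means were removed.

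**Figure D4:**
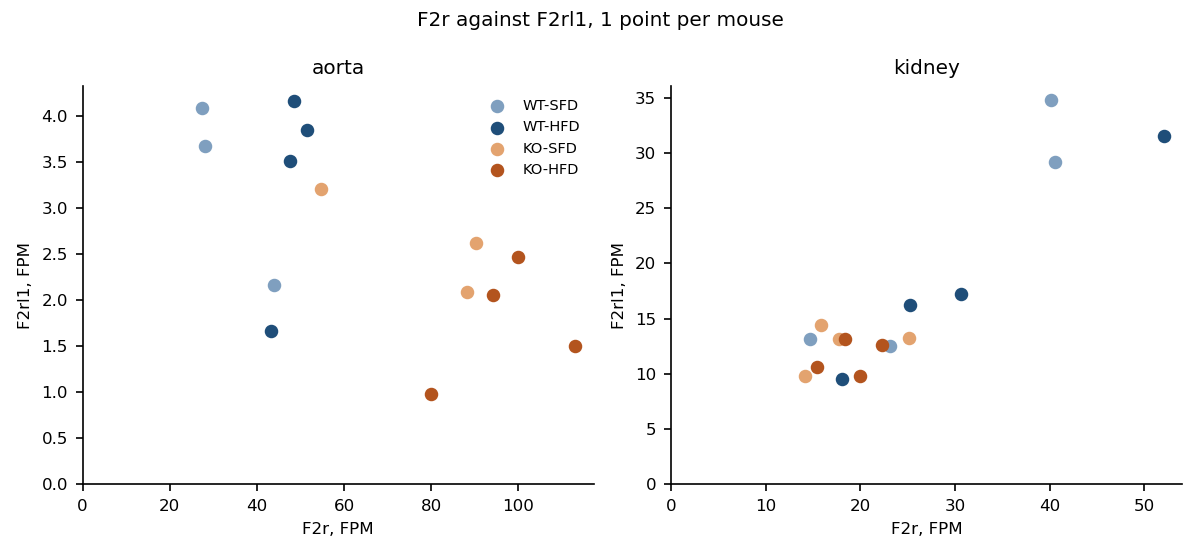
F2r against F2rl1, in FPM, with 1 point per mouse coloured by genotype and diet, for 14 aortae and 16 kidneys. In the kidney both genes are high in the same 3 WT mice, and in the aorta KO points lie at higher F2r than WT points while F2rl1 overlaps between the genotypes.

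In none of the 15 cell type marker lists were kidneys WT-SFD 1, WT-SFD 2 and WT-HFD 1 together the 3 highest or the 3 lowest. Their smooth muscle sums were 141, 172 and 139 FPM against 129 to 188 FPM over all kidneys, and their endothelial sums were 357, 401 and 420 FPM against 288 to 420 FPM. The next gene on the chromosome, Iqgap2, was 38.7, 38.4 and 47.1 FPM in these kidneys and 15.1 to 43.1 FPM in the others. Iqgap2 was lower in every KO-SFD than in every WT-SFD kidney (log2 -0.83, SE 0.217, edgeR adjusted p = 0.432), where 3.98% of all genes had groups without overlap. It rose on HFD in KO (log2 0.86, SE 0.217, edgeR adjusted p = 0.0468). Neither the diet effect in WT (log2 0.15, edgeR adjusted p = 0.971) nor that averaged over genotype (log2 0.50, edgeR adjusted p = 0.0693) passed. The difference of its diet effect between the genotypes did not pass (log2 0.72).

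F2rl2 and F2rl3 were rare in the kidney. F2rl2 had 14 counts over 16 libraries and at most 4 in one, with group means of 0.0719, 0.0542, 0 and 0.045 FPM in WT-SFD, WT-HFD, KO-SFD and KO-HFD. It failed the filter on low counts, and two-sided exact permutation tests of log2(FPM + 0.1) gave p = 0.829 and 0.429 for diet in WT and KO, and 0.429 and 1 for genotype on SFD and HFD, where 4 against 4 allows no p below 0.0286. F2rl3 had 3 to 19 counts per kidney, and its group means were 0.564 ± 0.375, 0.602 ± 0.0543, 0.753 ± 0.213 and 0.552 ± 0.304 FPM in the same order (SD, n = 4). Its log2 fold change was 0.20 for KO against WT averaged over diet (interval -0.47 to 0.86, edgeR adjusted p = 0.922) and -0.12 for diet (interval -0.79 to 0.54, edgeR adjusted p = 0.879).

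Of the 3 members tested in the kidney, 0 passed an edgeR adjusted p under 0.05 for HFD against SFD in WT (0.964% of all genes tested), in KO (2.39%) or averaged over genotype (4.62%), and 0 had an unadjusted p under 0.05. For KO against WT 0 of 3 passed on SFD (0.0133% of all genes), on HFD (0%, with 263 genes at an unadjusted p under 0.05) or averaged over diet (0.0133%), and 0 of 3 passed for the difference of the diet effect (0%, with 503 genes at an unadjusted p under 0.05). DESeq2 called none of the 3 in any of these comparisons. Both F2r and F2rl1 had an unadjusted p under 0.05 averaged over diet, as 5.93% of all genes did, F2r also on HFD (1.75% of all genes) and F2rl1 also on SFD (8.69%).

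The genes whose levels were most like F2r over the 14 aortae were Plxna4 (Pearson r = 0.910), a semaphorin co-receptor, Map1b (0.907), a microtubule-associated protein, Adcy1 (0.887), an adenylyl cyclase, Gm16580 (0.884) and Glis3 (0.884). For Adcy1 the correlation was -0.154 after group means were removed. F2rl1 in the aorta ran closest to Plekhf2 (0.892), Tie1 (0.851), an endothelial receptor kinase, Kif22 (0.843), Cyb5r1 (0.834) and Cav2 (0.831), a caveolin. Closest to F2rl2 were Golt1b (0.941), Ccndbp1 (0.913), Entpd2 (0.892), Slc35b1 (0.887) and Pf4 (0.879), the platelet chemokine, and closest to F2rl3 were Gltscr1l (0.850), Sirt1 (0.839), Zfp292 (0.820), Phyhipl (0.787) and Gm26564 (0.780). In the kidney, F2r and F2rl1 shared Cds2 (0.818 and 0.828) and Zbtb1 (0.815 and 0.763) among their 5 nearest, beside Vmn2r46 (0.806) and Gm3972 (0.804) for F2r and Cdyl (0.822) and Gm5803 (0.770) for F2rl1. F2rl3 there ran closest to Trim46 (0.832), Car11 (0.779), Lmo1 (0.775), Kcnn1 (0.756) and Efcab4a (0.750). These correlations describe libraries that share depth, fat content and groups.

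The proteases that cut these receptors were described from a list of 26 enzymes and zymogens, of which 6 could be tested in the aorta and 12 in the kidney. In the aorta Tpsb2, a mast cell tryptase that cuts PAR2, was lower on HFD averaged over genotype (log2 -2.04, SE 0.505, edgeR adjusted p = 0.0356), and the other 5 did not pass. Tpsb2 was 7.08, 5.53 and 7.62 FPM in the fat-rich aortae WT-SFD 1, WT-SFD 2 and KO-SFD 1, 4.03 FPM in KO-SFD 2 and 0.201 to 2.53 FPM in the other 10, so it was high where adipocyte markers were high, and without the 4 fat-rich aortae its log2 fold change was 0.05 (SE 0.66). The 8 mast cell markers, led by Kit, summed to 37.9, 19.7, 36.1 and 25.7 FPM on average in WT-SFD, WT-HFD, KO-SFD and KO-HFD. In the kidney 1 of the 12 tested rose and 2 fell on HFD averaged over genotype, where 4.62% of all genes were called. Plau, urokinase, averaged 677 and 781 FPM in WT-SFD and KO-SFD against 569 and 442 FPM on HFD (log2 -0.54 averaged over genotype, edgeR adjusted p = 0.0063). It passed within KO (log2 -0.82, edgeR adjusted p = 0.00593). In WT 0 of the 12 passed, and Plau overlapped between HFD (467 to 727 FPM) and SFD (603 to 761 FPM). The difference of its diet effect between the genotypes did not pass (log2 -0.57). Averaged over genotype Proc, protein C, fell by 0.41 on the log2 scale (edgeR adjusted p = 0.0427), and F10 rose. Proc and F10 are also members of the thrombin generation list described next. The thick ascending limb markers, of which Umod was the most abundant and Kcnj1 had no counts, moved with Plau: their sums averaged 6000, 5150, 7160 and 4600 FPM in WT-SFD, WT-HFD, KO-SFD and KO-HFD, with 0 of 3 tested past the limit for diet. KO-HFD 3 was lowest in both, at 318 FPM for Plau and 2970 FPM for the markers, and the part of this cell type in the Plau values was not tested.

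The generation of thrombin, the ligand-releasing protease of PAR1, PAR3 and PAR4, and its control were read from 19 genes. In the kidney 5 of 15 tested genes rose on HFD averaged over genotype and 1 fell, where 4.62% of all genes were called in either direction, with a median log2 fold change of 0.13 against -0.01 over all genes. Cell type markers differed with diet in the same kidneys: 2 of 10 adipocyte, 2 of 7 proximal tubule and 2 of 4 distal convoluted tubule markers rose averaged over genotype and 1 of 5 platelet markers fell. The adipocyte sums, led by Pck1, a gluconeogenic enzyme that the proximal tubule also expresses, averaged 2140 and 1790 FPM on SFD in WT and KO and 3060 and 4310 FPM on HFD, while the median log2 fold change of that list was -0.47, and the part of cell content in the list's changes was not tested. F5, coagulation factor V, was 4.98, 0.753, 1.99 and 1.93 FPM in WT-SFD, 18.6, 10.7, 10.7 and 8.4 FPM in WT-HFD, 2.94, 2.21, 1.63 and 2.89 FPM in KO-SFD and 9.43, 9.68, 15.2 and 17.9 FPM in KO-HFD. No HFD kidney was as low in F5 as any SFD kidney, where 5.01% of all genes in WT and 8.87% in KO had diet groups without overlap. The log2 fold change of F5 was 2.33 in WT (SE 0.377, edgeR adjusted p = 0.00331) and 2.42 in KO (SE 0.381, edgeR adjusted p = 0.00156).

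Of the inhibitors in that list Tfpi, Tfpi2 and Serpinc1 rose and the anticoagulant Proc fell, while Serpine2 did not pass and averaged 13.8, 15.5, 17.5 and 13.9 FPM in WT-SFD, WT-HFD, KO-SFD and KO-HFD. Anxa5 of the same list did not pass either, at 117, 126, 142 and 134 FPM in these groups. Besides Tfpi, Tfpi2, Serpinc1, Proc, F5 and F10, no gene of the list passed for diet averaged over genotype. Tfpi, the tissue factor pathway inhibitor, averaged 5.24 FPM in WT-SFD and 5.41 FPM in KO-SFD against 13.3 FPM in WT-HFD and 12.4 FPM in KO-HFD (log2 1.27 averaged over genotype, SE 0.137, edgeR adjusted p = 1.92e-05). Its relative Tfpi2 averaged 4.58 and 3.79 FPM on SFD against 10.4 and 9.26 FPM on HFD in WT and KO (log2 1.23, SE 0.139, edgeR adjusted p = 3e-05). Serpinc1, antithrombin, which was named after its values were seen to complete the count of 5, averaged 2.01 and 1.89 FPM on SFD and 4.73 and 4.81 FPM on HFD (log2 1.29, SE 0.227, edgeR adjusted p = 0.00231), and F10, factor X, had a log2 fold change of 1.28 (SE 0.244, edgeR adjusted p = 0.00488). Both procoagulant factors and inhibitors were thus among the genes that rose, while 0 of the 15 tested passed for KO against WT in the kidney on either diet. At an unadjusted p under 0.05 there were 3 on SFD and 0 on HFD, against 8.69% and 1.75% of all genes. F2, prothrombin, was among the 3 on SFD, at 4.47 FPM in KO-SFD and 1.54 FPM in WT-SFD (log2 1.59, edgeR adjusted p = 0.472). Of all genes 0.0133% were called on SFD and 0% on HFD.

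**Figure D5:**
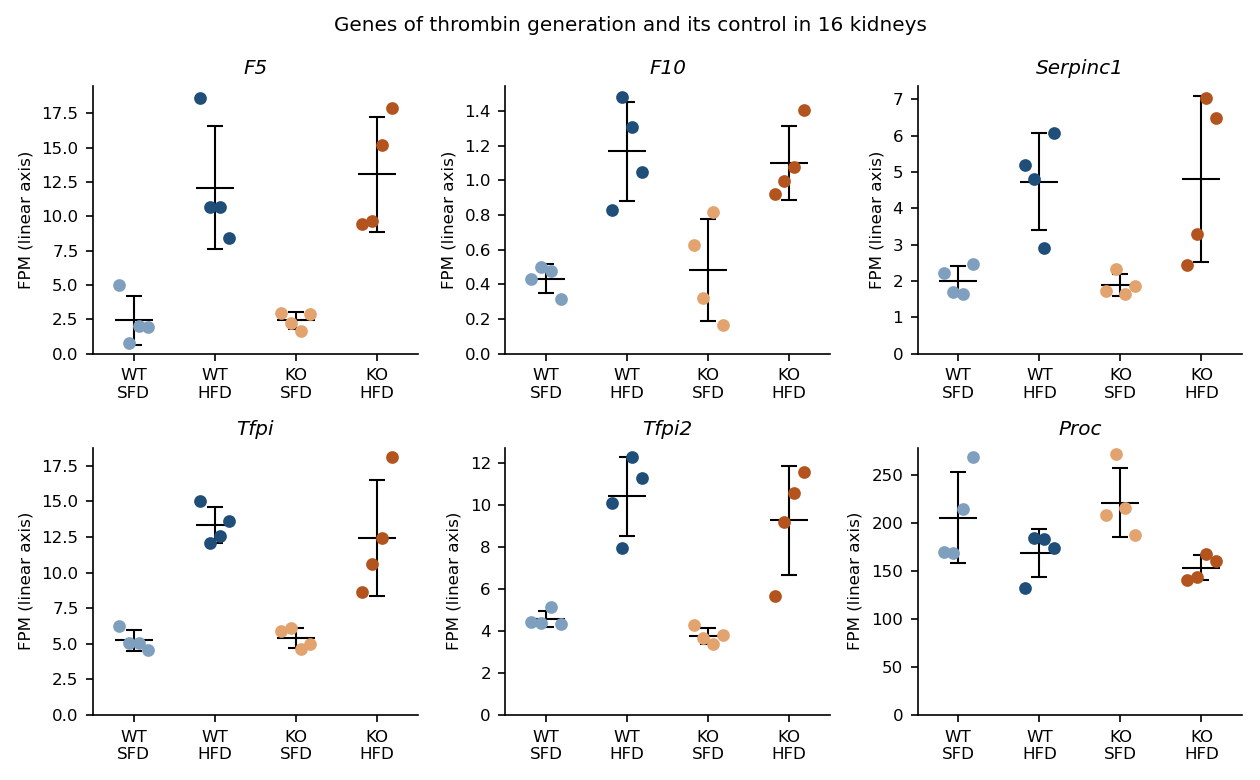
Genes of thrombin generation and its control in every kidney, in FPM on linear axes, by genotype and diet; horizontal lines are group means and bars are SDs. Group means of F5, Tfpi, Tfpi2, Serpinc1 and F10 were higher on HFD in both genotypes and those of Proc were lower.

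In the aorta 1 of 11 tested genes of that list rose on HFD, where 3.95% of all genes were called, so that this count says little about the list. It was Serpine2, protease nexin-1, a thrombin inhibitor of the vessel wall. Serpine2 averaged 263 FPM in WT-SFD, 330 FPM in WT-HFD, 275 FPM in KO-SFD and 399 FPM in KO-HFD (log2 0.43 averaged over genotype, SE 0.111, edgeR adjusted p = 0.0405). Its lowest values, 227, 253 and 196 FPM, were in fat-rich aortae WT-SFD 1, WT-SFD 2 and KO-SFD 1, and without the 4 fat-rich aortae its log2 fold change was 0.16 (edgeR adjusted p = 0.852).

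Downstream of the receptors, 9 of 10 coupled G protein alpha subunits, 21 of 25 effectors of Gq and G12/13 and 17 of 21 genes of desensitisation and trafficking could be tested in the aorta. None of the 3 lists had a gene past an edgeR adjusted p of 0.05 for KO against WT, with 1, 0 and 1 genes at an unadjusted p under 0.05 averaged over diet. Of all genes 0.196% were called averaged over diet and 7.17% had an unadjusted p under 0.05, so that these counts say little about the lists. Nearest was Rgs5, a regulator that shortens Gq signals in mural cells, at 1530, 1710, 2160 and 2940 FPM on average in WT-SFD, WT-HFD, KO-SFD and KO-HFD (log2 0.64 for KO against WT, SE 0.129, edgeR adjusted p = 0.0839). On HFD averaged over genotype, Itpr2, a calcium release channel (log2 -0.67, edgeR adjusted p = 0.0371), Prkce, a protein kinase C (log2 -0.78, edgeR adjusted p = 0.0385), and Nedd4l, a ubiquitin ligase (log2 -0.68, edgeR adjusted p = 0.0258), fell. They were 2 of 21 effectors and 1 of 17 desensitisation genes tested, where 3.95% of all genes were called (584 genes, 530 of them lower). All 3 were highest in these 3 fat-rich aortae, and with the 4 fat-rich aortae left out their log2 fold changes were -0.16, -0.11 and -0.34 (SE 0.0997, 0.154 and 0.152). That fit had 1 SFD aorta per genotype, and 0 genes of the whole table passed in it for diet averaged over genotype. In the kidney Gna12 and Gna14, alpha subunits of the G12 and Gq classes, rose on HFD averaged over genotype by 0.39 and 0.59 on the log2 scale (edgeR adjusted p = 0.0138 and 0.0161). These were 2 of 9 alpha subunits tested, where 4.62% of all genes were called. Within a genotype 1 passed in KO (Gna12, edgeR adjusted p = 0.0497) and 0 in WT, where 2.39% and 0.964% of all genes were called. In WT 3 of the 9 had an unadjusted p under 0.05, against 8.05% of all genes. In the same comparison averaged over genotype 0 of the 21 effectors and 0 of the 18 desensitisation genes tested there passed. At an unadjusted p under 0.05 there were 5 and 1, against 18.2% of all genes.

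The remaining lists placed the receptors beside their partners. Of 15 genes of EGFR transactivation tested in the aorta, Egfr alone passed for KO against WT averaged over diet, and 0 passed on SFD or on HFD (1 in each at an unadjusted p under 0.05). Adam12, a metalloprotease that sheds EGFR ligands, fell on HFD (log2 -2.55, edgeR adjusted p = 0.0229) with 33.6, 24.6 and 17.6 FPM in WT-SFD 1, WT-SFD 2 and KO-SFD 1, 4.31 FPM in KO-SFD 2 and 1.3 to 2.81 FPM in the other 10, and without the 4 fat-rich aortae its log2 fold change was 0.46 (SE 0.373). Of 21 known thrombin-induced genes of smooth muscle and endothelium 0 passed for KO against WT (1 at an unadjusted p under 0.05 averaged over diet, Ccl2, a monocyte chemokine, log2 1.02, edgeR adjusted p = 0.495), with an averaged median of -0.02 against -0.01 over all genes. By diet, 0 of the 21 on SFD and 3 on HFD had an unadjusted p under 0.05, against 6.54% and 5.35% of all genes. The list medians were 0.06 on SFD and -0.12 on HFD, against -0.03 and -0.01 over all genes. For HFD against SFD averaged over genotype 0 of these 21 passed (3.95% of all genes), with a median of 0.34 against 0.00. At an unadjusted p under 0.05 there were 4 of the 21, against 18.8% of all genes. For KO against WT averaged over diet these shares of all genes were 0.196% and 7.17%. Diet and fat content move together in these aortae, and the part of fat in that median was not tested. In the kidney Rhbdf2, a regulator of ligand shedding (log2 0.45, edgeR adjusted p = 0.0248), and Vcam1, an endothelial adhesion molecule (log2 0.58, edgeR adjusted p = 0.00738), rose on HFD averaged over genotype. They were 1 of 14 genes tested of EGFR transactivation and 1 of 20 thrombin-induced genes, near the 4.62% of all genes called. Rhbdf2 averaged 17.3 and 19.9 FPM on SFD and HFD in WT and 15.3 and 25.1 FPM in KO, and it passed within KO (log2 0.71, edgeR adjusted p = 0.0217), while the difference of its diet effect between the genotypes did not pass (log2 0.51, edgeR adjusted p = 1). Among 16 other Gq-coupled vasoconstrictor receptors tested in the aorta, 0 passed for KO against WT (1 at an unadjusted p under 0.05 averaged over diet). Adra1a, an alpha1-adrenergic receptor, was lower on HFD in the aorta (log2 -1.67, edgeR adjusted p = 0.0275), 1 of 16 tested where 3.95% of all genes were called. Its highest values were in the same fat-rich aortae (45.6, 30 and 26.7 FPM), and its log2 fold change was 0.28 (SE 0.241) without the 4. In the kidney it was higher on HFD averaged over genotype (log2 0.80, edgeR adjusted p = 0.0072), 1 of 14 tested where 4.62% of all genes were called. Adra1a passed there within KO (log2 1.19, edgeR adjusted p = 0.0096). In WT it averaged 7.97 FPM on SFD and 10.6 FPM on HFD, and 0 of the 14 passed. The difference of its diet effect between the genotypes did not pass (log2 0.78). Of 7 platelet receptors for other agonists tested in the aorta and 6 in the kidney, 0 passed for HFD against SFD averaged over genotype (1 in each at an unadjusted p under 0.05). For KO against WT averaged over diet in the kidney, 0 genes of any of these lists passed, with 0 to 2 per list at an unadjusted p under 0.05. Of all genes 0.0133% were called there and 5.93% had an unadjusted p under 0.05, so that these counts say little about the lists.

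None of the neighbours named here passed for KO against WT in the aorta. Iqgap2 had a log2 fold change of -0.25 for KO against WT averaged over diet (interval -0.74 to 0.23, edgeR adjusted p = 0.840), Sv2c -0.11 (edgeR adjusted p = 0.967), and S100z had no counts there. Beside F2rl3, Sin3b had 0.00 (edgeR adjusted p = 0.997).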

How the data were processed

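Aortae (14) and kidneys (16) were sequenced at different sites and therefore fitted apart. The authors clipped reads with cutadapt, aligned them to GRCm38/mm10 with Bowtie2 and TopHat2 and used featureCounts to count them by gene, with gene annotation from BiomaRt, and the deposited counts are raw, 1 column per mouse. The strand setting, the gene models used for counting and the treatment of reads with several matches are not given in the sources used here. Genes on chromosomes 9, X, Y and MT and the end of chromosome 8 had no counts.

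R 4.3.3 with edgeR 4.0.16 was used: TMM factors (0.863 to 1.24 in the aorta, 0.9 to 1.1 in the kidney), filterByExpr by group (14796 and 15034 genes tested), the quasi-likelihood functions (glmQLFit, glmQLFTest) on all groups of a tissue, and Benjamini-Hochberg adjustment over all genes tested. Median totals were 8998366 and 19544128 counts. A limit of 0.05 was used in place of the study's 0.001. At 0.001, 0 genes passed for diet in the aorta and 153 for averaged diet in the kidney in the fit used here. The paper reports major HFD changes in WT aortae and far fewer in KO at its own limits. Those came from its own fit, with 4 aortae given per group. The SE of a log2 fold change was derived from the fit, as its absolute value divided by the square root of the F statistic. The interval was built from that SE and a t quantile. No 2 libraries were copies (smallest chi-square per gene 8.38 over 91 pairs of aortae and 9.21 over 120 pairs of kidneys). Likeness used log2 library-scaled counts with a prior count of 2. Python 3.11.15 with matplotlib 3.10.9 drew the figures.

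The members and all gene lists were chosen with earlier results of these data known. Named were the 4 members, Egfr, from each pathway list up to 3 genes per contrast with the smallest p among those past the limit (otherwise the gene with the smallest p), the 5 genes most like each member, the top gene and unread markers of each marker list, and chromosomal neighbours; Serpinc1 was added after its values were seen. The alternatives were DESeq2 1.42.0, RLE factors, library totals, no filter, only the groups compared, the legacy fit, an adipocyte covariate, coding in place of exon length, family shares per length, leaving out each library and, chosen after seeing the data, leaving out the 4 fat-rich aortae. The scripts were tested on simulated data. The study gives 4 aortae per group, and 3 per genotype on SFD were used here.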

Additional observations from a re-analysis of the deposited data

How the results depend on the processing

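Over 45 results on the members, F2r in KO against WT aortae left out because it has no test, 951 alternative values were computed: 899 kept their direction and side of the limit or stayed within the spread, 49 changed sign and 3 passed the limit, all on differences not called at first. F2rl1 for HFD against SFD in WT aortae (-0.01 on the log2 scale) was 0.00 with DESeq2 and with RLE factors, 0.12 with library totals, 0.02 without the filter, 0.29 with the adipocyte covariate and 0.63 without the 4 fat-rich aortae. Without those aortae F2rl1 was 0.06 for averaged diet and 0.28 for KO against WT on SFD, and the F2rl2 diet effect differed by 0.81 between genotypes, with 1 library per genotype left on SFD, assumed to vary like the other groups. F2r for averaged diet was 0.43 and passed with DESeq2, F2rl3 for averaged diet was -0.06 with the covariate, and F2rl2 for KO against WT on SFD was 0.19 with library totals. Coding in place of exon length moved 7 of 8 levels per kilobase, and F2r made up 53.9% of the family in the kidney per length. The causes were not tested.

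The number of genes called in the aorta was, for diet in WT (0), 666 with DESeq2, 312 with library totals, 347 without the filter and 1 with the covariate or without the fat-rich aortae. For diet in KO (0) it was 8 with DESeq2 and 2 with either fat setting, and for averaged diet (584) 1007, 3 with the covariate and 0 without the fat-rich aortae. For KO against WT it was on SFD (12) 21 with DESeq2, 4 with only the groups compared, 21 with the covariate and 2 without the fat-rich aortae; on HFD (12) 40, 27, 26 and 29; averaged (29) 56 with DESeq2, 44 with the covariate and 15 without the fat-rich aortae. For the difference of the diet effect (0) DESeq2 gave 2. In the kidney DESeq2 gave 263 for diet in WT (145), 695 in KO (360), where only the groups compared gave 235, and 1101 averaged (695). For KO against WT in the kidney it was 26 with DESeq2, 0 with library totals and 5 without the filter on SFD (2), 1 with DESeq2, without the filter and with the legacy fit on HFD (0), and 15 with DESeq2 and 1 with library totals averaged (2). For the difference of the diet effect there DESeq2 gave 1.

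Leaving out each library moved the aorta counts to 0 to 1907 for diet in WT (most without WT-SFD 3), 0 to 15 for diet in KO, 0 to 1929 for averaged diet (0 without WT-SFD 1, 1929 without WT-SFD 3), 5 to 61 for KO against WT on SFD and 6 to 20 on HFD. In the kidney they were 203 to 422 for diet in KO, 0 to 5 for KO against WT on SFD, 0 to 1 on HFD and 1 to 3 averaged. In the aorta, F2r ran from 0.41 to 0.78 for diet in WT (0.78, past the limit, without WT-SFD 3) and from 0.32 to 0.55 averaged. F2rl1 ran from -0.22 to 0.20 for diet in WT. F2rl2 ran from 0.76 to 1.98 for diet in WT, from 0.34 to 1.86 in KO, from -1.10 to 0.61 for KO against WT on SFD, from -0.81 to 0.05 averaged and from -1.13 to 0.58 for the difference of the diet effect. F2rl3 ran from -0.36 to 0.15 for diet in KO and from -0.35 to 0.13 for KO against WT on HFD. In the kidney, F2r ran from -0.26 to 0.30 for diet in WT, from -0.04 to 0.26 in KO, from -0.10 to 0.18 averaged, from -0.25 to 0.31 for the difference of the diet effect and from -0.92 to -0.36 for KO against WT on HFD. F2rl1 ran from -1.01 to -0.51 for KO against WT on SFD and from -0.91 to -0.29 on HFD, from -0.64 to 0.05 for diet in WT and from -0.18 to 0.51 for that difference. F2rl3 ran from -0.12 to 0.58 for diet in WT, from -0.33 to 0.06 for averaged diet, from -0.55 to 0.10 for KO against WT on HFD and from -0.01 to 0.38 averaged. No paired analysis was possible because the groups of a tissue came from different mice and the replicate numbers only name libraries. F2rl2 and F2rl3 rest on few counts in both tissues, and depth and low expression were not told apart.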
